A study of Mus musculus with 9 samples.

Results

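Early Hoxa13 sites that had no peak at E12.5 were described across the mouse genome. An early site was a Hoxa13 peak of the E11.5 limb bud (E for embryonic day) that shared at least 1 bp with a Hoxa13 peak of the E11.0 autopod and no bp with any Hoxa13 peak of the E12.5 limb bud. Of the 143460 peaks in the E11.5 list, 15712 were early sites (11.0%). These sites were chosen by the peak positions in the deposited Hoxa13 lists of the 3 stages, so their pattern over stages is given as a description. Absence at E12.5 means that the list for that stage holds no peak there, and does not show that the protein was absent.

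Hoxa13 is a homeodomain transcription factor made in the autopod, the part of the limb bud that forms the hand and foot, and embryos that lack it have defective digits. Together with Hoxd13 it is known to act on enhancers active in the distal limb and to keep Hoxa11 out of the autopod. Hoxa11, a related homeodomain factor, works mainly in the zeugopod, the forearm and lower leg, so the domains of both genes come to lie next to each other as the limb bud grows.

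All tissue came from wild-type ICR embryos, and each protein was precipitated from cross-linked chromatin with a home-made antibody and sequenced (ChIP-seq). The Hoxa13 libraries, 1 for each stage, came from 11 pooled pairs of autopods (E11.0), from the whole limb buds of a litter (E11.5) and from E12.5 limb buds. For Hoxa11 the E11.5 limb bud has replicates 1 and 2, and 4 further libraries are input DNA, not analysed here. Chromatin and libraries of E12.5 were prepared by an earlier published procedure, so the step to E12.5 combines stage with protocol, and E11.0 combines stage with dissected tissue. Those effects cannot be told apart. The E11.0 list had 50890 Hoxa13 peaks, the E11.5 list 143460 and the E12.5 list 44699, while Hoxa11 had 2953 in replicate 1 and 1647 in replicate 2. Read depth is unknown. With 1 Hoxa13 library per stage there is no replicate check of any stage difference, and peaks of 1 library are not replicates, so no test was run across peaks. Shares of peaks carry exact Clopper-Pearson 95% intervals, which cover counting error only. They take peaks as independent, so whether 2 intervals overlap is a description and not a test. All positions are 1-based in mm9.

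Over the full lists, of the E11.5 peaks that met E11.0, slightly more lacked a peak at E12.5 than had one. They numbered 29479, of which 15712 were early sites (53.3%, 95% interval 52.7 to 53.9) and 13767 were found at all 3 stages (all-stage sites). A further 17319 peaks met E12.5 but no E11.0 peak (late-shared sites), and 96662 met neither list (E11.5-only sites). Of all 143460 E11.5 peaks, 112374 had no E12.5 peak and 31086 had one. Peaks that met E11.0 thus lacked E12.5 less often than the whole list. The order of early and all-stage sites turned when each Hoxa13 list was limited to its widest peaks at the length of the shortest. There 6105 were early and 9843 all-stage sites. Seen from the E11.0 autopod, 15725 of 50890 peaks (30.9%) met an early site. Only 92 of those E11.0 peaks also touched an E12.5 peak elsewhere along their length, and they were long, with a median width of 554.5 bp against 245 bp for the 15633 that did not.

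Early sites were of middle width. Their median at E11.5 was 315 bp (quartiles 260 and 381 bp). All-stage sites had a median of 391 bp, late-shared sites of 328 bp and E11.5-only sites of 267 bp, against 286 bp for the whole E11.5 list. With the E11.5 list cut into 10 equal parts by width, the share of early sites was 6.79% in the narrowest part (203 to 214 bp), 16.04% in the ninth (368 to 441 bp) and 15.5% in the widest (441 to 4980 bp). All-stage sites rose more steeply, making up 1.60% of the narrowest part and 33.5% of the widest. Among E11.5 peaks that met E11.0, the share without E12.5 therefore fell with width. It was 80.9% in the narrowest part, 69.0% in the sixth and 31.6% in the widest. Peak width is not signal strength, the lists give no other value for Hoxa13, and a wider peak has more bases to be met by.

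**Figure D1:**
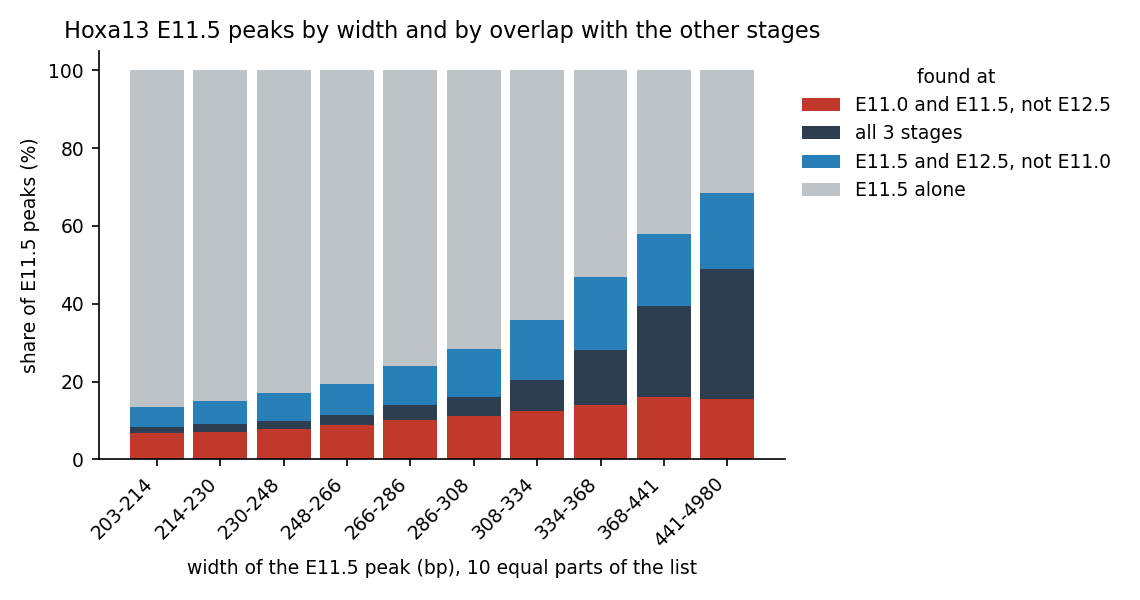
Share of Hoxa13 E11.5 peaks (y, percent) in each of 10 equal parts of the list by peak width (x, bp), split by the stages at which the peak is found, with 14346 peaks per bar. Early sites (bottom) go from 6.79% in the narrowest part to 15.5% in the widest, while all-stage sites go from 1.60% to 33.5%.

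The E11.0 and E11.5 peaks of early sites lay on top of each other rather than edge to edge. The overlap had a median of 213 bp (quartiles 187 and 261 bp), or 69.7% of the E11.5 peak at the median. Peak centres were a median of 44.5 bp apart, and 13084 of the 15712 sites (83.3%) had centres within 100 bp. The E11.0 partner was narrower than the E11.5 peak in 75.3% of early sites and lay wholly inside it in 40.1%. In all-stage sites, which are wider, the overlap was a median of 266 bp, or 69.4% of the E11.5 peak, and centres were a median of 39.5 bp apart. Their E11.0 partner was narrower than the E11.5 peak in 81.6% and lay wholly inside it in 56.9%, more often than in early sites. Nearly all early sites had 1 partner (15642), while 68 had 2 and 2 had more. Few sites were members by a narrow margin: 18 shared under 10 bp with E11.0. Just outside the rule, 224 E11.5-only peaks had an E11.0 peak within 100 bp without touching it, and 7 all-stage peaks were kept out by an E12.5 overlap under 10 bp.

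Most early sites were far from any E12.5 peak. The nearest one was a median of 16068.5 bp away (quartiles 5971.75 and 36139 bp). An E12.5 peak lay within 100 bp of 54 early sites, within 500 bp of 449 (2.86%), within 2000 bp of 1659 (10.6%) and within 10000 bp of 5779 (36.8%). E11.5-only sites, which also lack E12.5 overlap, had a median of 17667.5 bp, with 1.93% within 500 bp, 8.48% within 2000 bp and 33.8% within 10000 bp. Early sites were thus slightly nearer to E12.5 peaks than E11.5-only sites at each of these distances, and in both classes near misses were a small part.

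**Figure D2:**
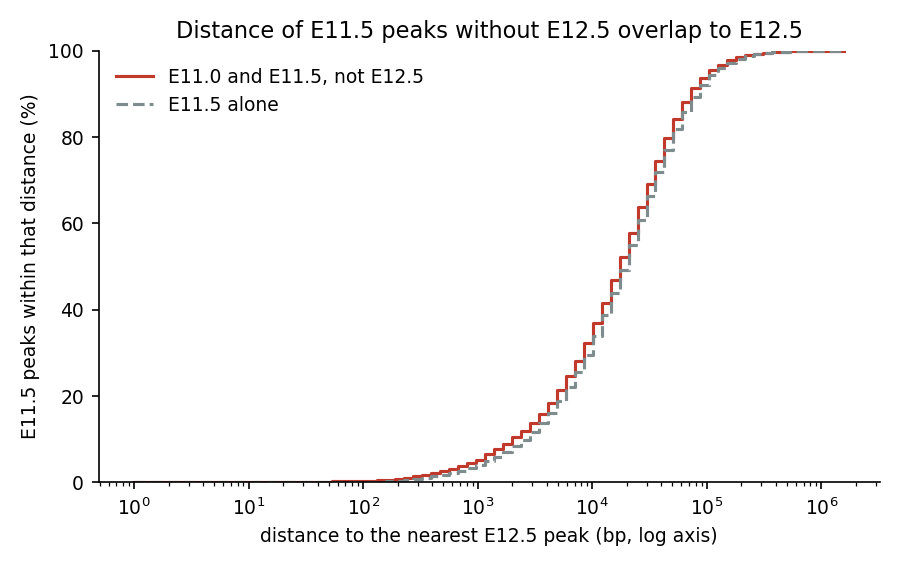
Cumulative share of E11.5 peaks (y, percent) by distance to the nearest E12.5 peak (x, bp, log axis) for early sites (solid) and E11.5-only sites (dashed). The curves run close together, with medians of 16068.5 and 17667.5 bp, and neither has a step at short distance.

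The 5 early sites nearest to an E12.5 peak missed it by 1 to 4 bp. They lay on chromosome 17 from 82298846 to 82299224, chromosome 1 from 106062458 to 106062799, chromosome 6 from 57980303 to 57980904, chromosome 7 from 10597615 to 10597832 and chromosome 5 from 56539401 to 56539672. The 5 farthest on placed chromosomes were neighbours on chromosome 2, at 175728818 to 175729165, 175808570 to 175808934, 175820657 to 175820877, 175828773 to 175829137 and 175894406 to 175894663. Their distances ran from 826693 to 926648 bp. The 1 Mb window that holds them, from 175000001 to 176000000, had 53 E11.0 peaks, 33 E11.5 peaks and 0 E12.5 peaks, and 18 of its E11.5 peaks were early sites.

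Early sites rarely coincided with Hoxa11, which the rule did not use. In replicate 1, 80 of 15712 early sites met a Hoxa11 peak (0.509%, 0.404 to 0.633), against 1.46% of all E11.5 peaks. In replicate 2 the number was 40 (0.255%, 0.182 to 0.347), against 0.803% of all E11.5 peaks. Sites of both replicates, merged from Hoxa11 peaks that overlap each other, met 20 early sites (0.127%, 0.0778 to 0.197), against 0.593% of all. Each share lay below its background, in both Hoxa11 libraries.

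The classes that reached E12.5 had far higher shares. In replicate 1, 4.51% of all-stage sites (4.17 to 4.87) and 4.38% of late-shared sites (4.08 to 4.69) met Hoxa11, 8.86 and 8.60 times the share of early sites. In replicate 2 the shares were 2.88% (2.61 to 3.18) and 2.59% (2.36 to 2.83), 11.3 and 10.2 times that of early sites. The intervals of early sites did not overlap these. E11.5-only sites, which lack both other stages, were close to early sites, at 0.654% (0.604 to 0.707) in replicate 1 and 0.276% (0.244 to 0.311) in replicate 2, and the intervals of these classes overlapped in both replicates. Before width was taken into account, the shares thus differed by whether E12.5 was met, with E11.0 and without it. Hoxa11 came from the limb bud, as did Hoxa13 of E11.5 and E12.5, while the E11.0 tissue was autopod. By its title, 1 input library serves both Hoxa13 at E11.5 and Hoxa11 replicate 1. The part of tissue, protocol and input in these shares was not tested.

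Width bears on these shares: in each of the 4 classes the widest peaks met Hoxa11 most often. Of the 80 early sites that met replicate 1, 72 were in the widest 25% of the E11.5 list (349 to 4980 bp), which holds 5556 of all 15712 early sites. There the share was 1.30% of early sites (1.02 to 1.63), 6.43% of all-stage sites (5.94 to 6.95), 8.87% of late-shared sites (8.21 to 9.57) and 2.30% of E11.5-only sites (2.06 to 2.56). In replicate 2 the widest 25% gave 0.522% (0.350 to 0.749) of early sites, 4.01% of all-stage sites, 5.18% of late-shared sites and 0.893% (0.744 to 1.06) of E11.5-only sites. Among wide peaks early sites thus had the lowest share of the 4 classes, with intervals apart from those of E11.5-only sites in replicate 1 and overlapping by a little in replicate 2. When the other classes were weighted to the widths of early sites over 20 width bins, all-stage sites stood at 1.99% and 1.39% in replicates 1 and 2, late-shared sites at 3.93% and 2.33%, and E11.5-only sites at 1.18% and 0.482%. These were 3.91 and 5.44, 7.73 and 9.17, and 2.31 and 1.89 times the shares of early sites. Weighting lowered the ratio for all-stage sites, which are the widest, and raised it for E11.5-only sites, which are the narrowest. At these widths the shares differed by E11.0 as well as by E12.5. In both replicates early sites were below E11.5-only sites, and all-stage sites were below late-shared sites. The weighted shares carry no interval, and widths still differ inside the widest bin. The longest early site there had 2751 bp and the longest late-shared site 4980 bp.

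**Figure D3:**
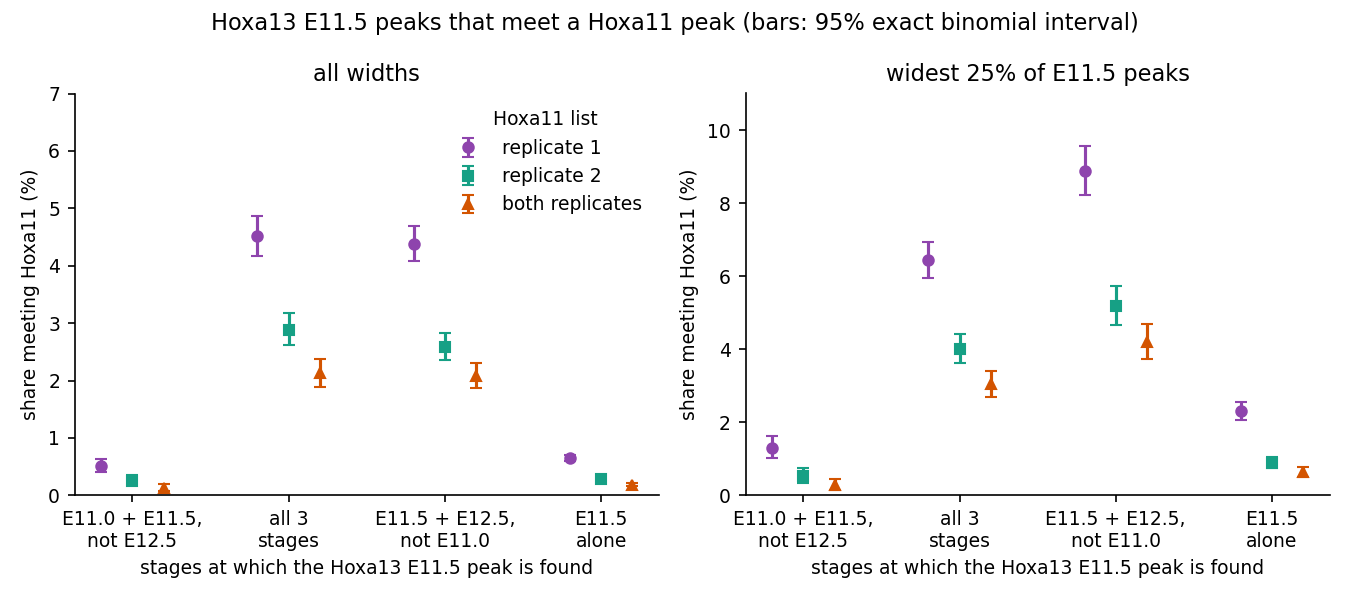
Share of Hoxa13 E11.5 peaks that meet a Hoxa11 peak (y, percent) by the stages at which the Hoxa13 peak is found (x), for Hoxa11 replicates 1 and 2 and for sites of both; bars are exact binomial 95% intervals. Left, all widths, with early sites at 0.509% and 0.255%; right, the widest 25% of E11.5 peaks, with early sites at 1.30% and 0.522%.

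Counted from Hoxa11, early sites took a small part of its peaks. They were met by 80 of 2953 replicate 1 peaks (2.71%, 2.15 to 3.36), 41 of 1647 replicate 2 peaks (2.49%, 1.79 to 3.36) and 20 of 1023 sites of both (1.96%, 1.20 to 3.003). Among Hoxa11 peaks that met any E11.5 Hoxa13 peak, that is 3.81% and 3.52% in replicates 1 and 2, against the 11.0% of E11.5 peaks that are early sites. By the authors' deposited fold enrichment over the peak caller's background, the 41 replicate 2 peaks on early sites were 1.88 to 7.33-fold, with a median of 3.74. The median was 4.09 for the 448 peaks on late-shared sites, 4.14 for the 430 on all-stage sites and 3.897 for all 1647, and the highest values there were 15.3, 17.7 and 17.7-fold. By the authors' deposited −log10 q, the median was 5.81 on early sites, 8.13 on late-shared sites, 7.93 on all-stage sites and 7.10 for all replicate 2 peaks. The 265 peaks on E11.5-only sites had medians of 3.96-fold and 6.43, and the 481 that met no E11.5 peak had 3.43-fold and 6.43. By fold enrichment, early sites thus had the lowest median of the 4 classes, but peaks that met no E11.5 peak were lower still. By −log10 q the median on early sites was the lowest of all these groups. The highest fold enrichment on an early site lay below the highest in the other classes, where more peaks were counted.

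The 20 early sites with a Hoxa11 site of both replicates were wide and often near an E12.5 peak. A replicate 2 peak touched each of the 20, while replicate 1 touched 18, and at the other 2, both on chromosome X, only the merged Hoxa11 site holds a replicate 1 peak. Of the 20, 15 were in the widest 25% of E11.5 peaks, 5 were on chromosome X and 1 on unplaced sequence. Of all 15712 early sites, 5556 were in that widest 25%, 538 (3.42%) on chromosome X and 155 (0.987%) on random and unplaced sequence. An E12.5 peak lay within 2000 bp of 8 of them (40%, 19.1 to 63.9), against 10.5% of the 15692 other early sites, and within 500 bp of 6. In single replicates, 23.8% of the 80 sites with replicate 1 (14.9 to 34.6) and 32.5% of the 40 with replicate 2 (18.6 to 49.1) had an E12.5 peak within 2000 bp, against 10.5% of early sites without that replicate. These shares rest in part on the 5 sites of chromosome X, all in windows dense in Hoxa13 peaks (more than the third quartile by over 3 interquartile ranges per 1 Mb window in any Hoxa13 list). Outside such windows 3 of 15 replicated sites had an E12.5 peak within 2000 bp (20%, 4.33 to 48.1), against 9.79% of other early sites, with 21.3% (12.7 to 32.3) for replicate 1 and 20.6% (8.70 to 37.9) for replicate 2. In 3 of the 20 cases, all on chromosome X, the Hoxa11 site itself met an E12.5 peak. The authors' replicate 2 summit fell inside the early site in 17.

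The replicated site with the highest replicate 2 score lay on chromosome X, where the early site ran from 121977124 to 121977832 and the Hoxa11 peak was 7.33-fold enriched, with its summit outside the early site and an E12.5 peak 380 bp away. It is one of those that replicate 1 did not touch. Next came chromosome 11 from 24586052 to 24586638, at 6.55-fold, with its summit at 24586144 inside the early site and the nearest E12.5 peak 2629 bp away. Un_random from 3653875 to 3655526 was 4.12-fold enriched and is the widest early site on unplaced sequence, at 1652 bp. Chromosome 10 from 70641119 to 70641622 followed at 6.03-fold, 32776 bp from E12.5. Another site on chromosome X, from 92123938 to 92124168, was 3.44-fold enriched and 475 bp from E12.5. On chromosome 14, the sites at 29314405 to 29314953 and 80761998 to 80762241 were 3.91 and 4.60-fold enriched. On chromosome 11, those at 34717924 to 34718293 and 18517374 to 18517931 were 4.99 and 4.83-fold, and chromosome 6 from 46806386 to 46806821 was 4.68-fold. Those at chromosome 14 from 80761998 and chromosome 11 from 34717924 were 70832 and 89430 bp from any E12.5 peak, the farthest of the 20.

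Hoxa11 peaks lay on or within 10 kb of early sites less often than of the classes that reached E12.5. A replicate 1 peak lay within 10 kb of 2.97% of early sites (2.71 to 3.24) and 4.30% of all E11.5 peaks, against 7.44% of all-stage, 7.62% of late-shared and 3.47% of E11.5-only sites (3.36 to 3.59). For replicate 2 the shares were 1.99% of early sites (1.77 to 2.22) and 2.46% of all E11.5 peaks, against 5.06%, 4.45% and 1.80% (1.72 to 1.89) of the other classes. Early sites were below E11.5-only sites, the largest class, in replicate 1 and above them in replicate 2. All these counts include the sites that met a Hoxa11 peak. For replicate 1 those were 80 of 466 early, 621 of 1024 all-stage, 758 of 1319 late-shared and 632 of 3356 E11.5-only sites. For replicate 2 they were 40 of 312, 397 of 697, 448 of 770 and 267 of 1744. The shares within 10 kb thus repeat in part the overlaps above, and peaks nearby without touching were not set apart.

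Early sites were spread over all chromosomes with a few places of very high density. Over chromosomes 1 to 19 and X, they made up between 9.85% of E11.5 peaks (chromosome 11, 9.05 to 10.7) and 12.6% (chromosome 14, 11.8 to 13.3). Of 2582 windows of 1 Mb with an E11.5 peak, 2474 held an early site, with a median of 5 per window. The call of dense windows took 26 windows and uses the same Hoxa13 lists as the rule. By list, 20 windows passed the bound in E11.0, 0 in E11.5 and 18 in E12.5. A window full of E11.0 peaks makes meeting E11.0 easier, so the share of early sites there is not independent of the call. In these windows 26.9% of E11.5 peaks were early sites (25.1 to 28.9), against 10.7% outside them (10.5 to 10.8). All-stage sites lay in dense windows more often than early sites, 5.14% against 3.59%. Of late-shared, E11.5-only and all E11.5 peaks, 1.12%, 0.650% and 1.46% did. On random and unplaced sequence the share was 26.3% (155 of 590 peaks, 22.8 to 30.0). Of all-stage sites 1.38% lay on such sequence, against 0.987% of early, 0.393% of late-shared and 0.183% of E11.5-only sites. Without the dense windows the share was 11.49% on chromosome 14, 10.4% on chromosome 13 (11.8% with them) and 10.3% on chromosome X (11.9% with them). Among chromosomes 1 to 19 and X, chromosome 7 then had the highest, 11.9%.

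The richest window lay on chromosome 13 from 66000001 to 67000000. It held 272 E11.0, 118 E11.5 and 39 E12.5 peaks, and 72 of the E11.5 peaks (61.0%) were early sites, 26 all-stage and 0 late-shared. The window before it had 55 early sites among 126 E11.5 peaks (43.7%). On chromosome 14 the 5 windows from 3000001 to 8000000 were a second such place: the 4 of them among the 10 richest held 35, 27, 26 and 29 early sites, or 52.2%, 56.3%, 52% and 43.9% of their E11.5 peaks. The first of the 5 held 19 of 40 (47.5%). The others of the 10 richest were on chromosome 2 from 177000001 to 178000000 (31 early sites), chromosome 4 from 60000001 to 61000000 (29), chromosome 3 from 113000001 to 114000000 (26) and chromosome 14 from 42000001 to 43000000 (24). In 9 of these 10 windows E11.0 had more peaks than E11.5, although the E11.5 list is the longest genome-wide, and 7 of the 10 were dense windows. Repeated sequence and input were not analysed here.

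Some well-filled windows had no early site. Of 1745 windows with at least 40 E11.5 peaks, 6 had none, among them chromosome 14 from 120000001 to 121000000 (58 E11.5 peaks), chromosome 13 from 53000001 to 54000000 (49), chromosome 7 from 130000001 to 131000000 (48), chromosome 13 from 9000001 to 10000000 (42) and chromosome 16 from 38000001 to 39000000 (40). Those 5 windows had 0 to 11 E11.0 peaks each. Over the 1745 windows the median share of early sites was 10.1% (quartiles 7.41% and 13.4%).

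**Figure D4:**
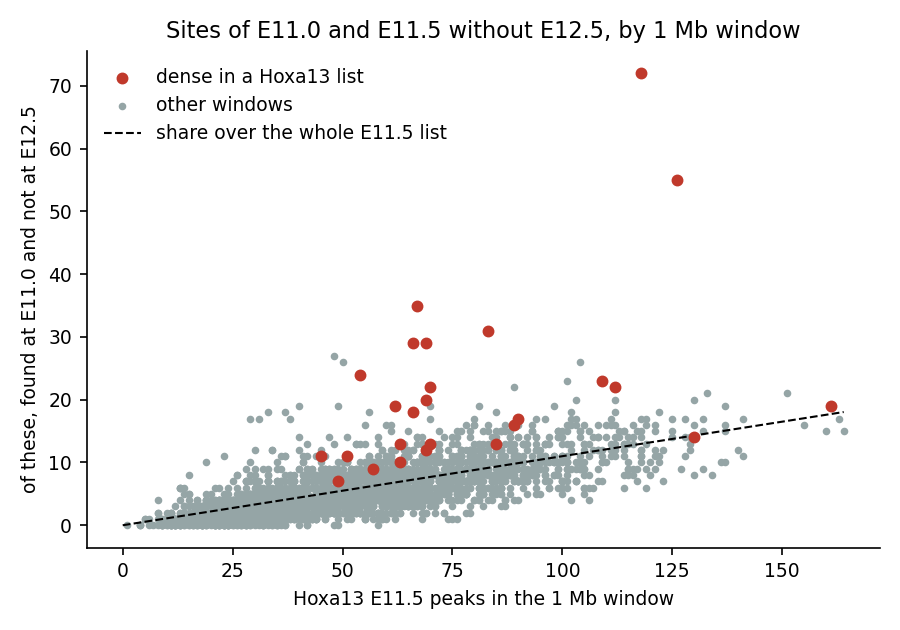
Number of early sites (y) against number of Hoxa13 E11.5 peaks (x) in each 1 Mb window of chromosomes 1 to 19, X and Y; large points are the 26 dense windows and the dashed line is the genome-wide share of 11.0%. The 2 highest points are neighbouring windows on chromosome 13, with 72 and 55 early sites.

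Along the chromosome, the E11.5 peaks next to an early site were early sites somewhat more often than elsewhere. Of 31414 adjacent peaks, 4260 were early sites (13.6%), against 12.8% next to all-stage, 9.76% next to late-shared and 10.5% next to E11.5-only sites. Outside dense windows the shares were 12.47%, 12.0%, 9.62% and 10.4%. Both classes that meet E11.0 thus had more early sites beside them than the classes that do not. Each of the other classes that meet another stage also had more of its own class beside it than the whole list: 12.4% next to all-stage sites were all-stage, against 9.59% next to any E11.5 peak, and 12.9% next to late-shared sites were late-shared, against 12.1%. Outside dense windows these were 10.2% against 9.14% and 12.8% against 12.1%, and for early sites 12.47% against 10.6%. A site of the same class lay within 10 kb of 18.8% of early, 18.4% of all-stage and 18.8% of late-shared sites, so early sites were not grouped more closely by that measure. Of the early sites, 11868 (75.5%) had no early site directly beside them, and the others formed 1714 runs of at least 2. The longest runs held 9 early sites each, on chromosome 3 from 113037949 to 113120477 and on chromosome 13 from 66616279 to 66716016, with 15 and 17 E11.0 peaks, 0 E12.5 peaks and 0 Hoxa11 peaks of either replicate. Runs of 8 followed on chromosome 13, from 65819193 to 65872471 and from 66015717 to 66075611, with 1 E12.5 peak each. Next were 5 runs of 6 early sites. The first of them by position was on chromosome 1 from 4221907 to 4307926, outside the dense windows, and held 1 Hoxa11 peak of replicate 1.

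**Figure D5:**
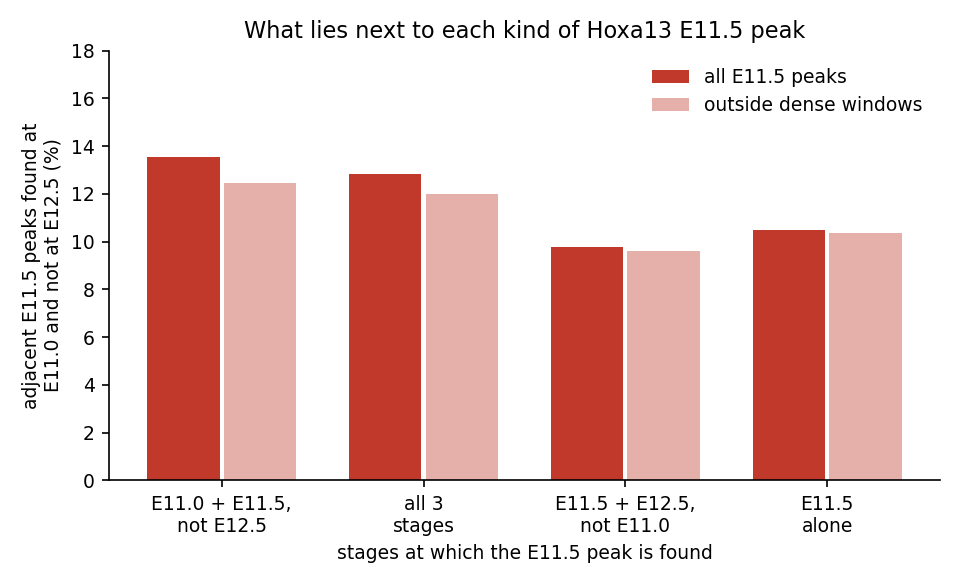
Share of adjacent E11.5 peaks that are early sites (y, percent), by the class of the peak beside them (x), over all E11.5 peaks and outside dense windows. Next to early sites the share is 13.6% over all peaks and 12.47% outside dense windows, and next to late-shared sites 9.76% and 9.62%.

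The widest early site on a placed chromosome lay on chromosome 11 from 106909750 to 106912500 (2751 bp), 154540 bp from any E12.5 peak. It was followed by chromosome 7 from 95416119 to 95417967 (1849 bp), 781 bp from E12.5, and chromosome 13 from 65647707 to 65649419 (1713 bp), in a dense window. The last of these was the only one of the 10 widest to meet Hoxa11, in replicate 1. Chromosome 9 from 114086846 to 114088454 (1609 bp), chromosome 2 from 74393743 to 74395099 (1357 bp) and chromosome 13 from 15773670 to 15774930 (1261 bp) came next, at 4325, 6239 and 6844 bp from E12.5. The others were on chromosome 7 from 9884015 to 9885264, chromosome 8 from 65579813 to 65581043, chromosome 16 from 75062901 to 75064128 and chromosome 15 from 49534958 to 49536163, with widths of 1206 to 1250 bp.

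Hox gene clusters, which encode Hoxa13, Hoxa11 and their relatives, were placed in 1 Mb windows from general knowledge of mm9, with no annotation of that build in hand. In the 4 windows that hold HoxA, HoxB, HoxC and HoxD, 28 of 332 E11.5 peaks were early sites (8.43%, 5.68 to 11.96), an interval that includes the genome-wide 11.0%. The HoxD window on chromosome 2 from 74000001 to 75000000 held 13 of 129, the HoxA window on chromosome 6 from 52000001 to 53000000 held 8 of 114, the HoxB window on chromosome 11 held 5 of 37 and the HoxC window on chromosome 15 held 2 of 52. The same windows held 35 all-stage and 46 late-shared sites. Among the 28, the chromosome 2 interval of 1357 bp was the widest, and the median was 359 bp. Hoxa11 replicate 1 met 2 of them, at 52271361 to 52271786 and 52781025 to 52781392 of chromosome 6, replicate 2 met 1, at 52345157 to 52345560, and no site of both replicates met any. The first of these was 63780 bp from any E12.5 peak, and the second 238 bp. Over all early sites, 0.509% met replicate 1 and 0.255% met replicate 2. The share meeting Hoxa11 among all E11.5 peaks of these windows was not counted, so these few cases are given as positions only.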

How the data were processed

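Hoxa13 and Hoxa11 ChIP-seq peak lists of mouse limb tissue were used as the authors deposited them, 5 lists from 5 libraries. The tools named, per the submitters' processing notes, are MACS2 2.1.0, Bowtie2 2.2.2 and CASAVA 1.4, with the mouse build mm9. Their roles, thresholds, use of the input and treatment of duplicates are not given in the sources used here. Hoxa13 lists and that of Hoxa11 replicate 1 hold positions alone. For Hoxa11 replicate 2 the deposited file also gives the authors' score, fold enrichment (a ratio), −log10 p-value, −log10 q-value and summit, which were used only within that list.

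Overlaps of at least 1 bp, distances, windows of 1 Mb and width ranks were computed with Python 3.11.15, pandas 2.3.3 and NumPy 2.4.6, after the overlap and distance code was tested on simulated intervals. Exact Clopper-Pearson intervals came from SciPy 1.17.1. A wider peak is met more easily, so overlaps depend on peak width and list length, and the minimum width was 187 bp at E11.0, 203 bp at E11.5 and 110 bp at E12.5. Depth of the libraries is unknown. Named regions are the 10 widest early sites on chromosomes 1 to 19, X and Y, the 10 replicated Hoxa11 cases of highest score, the 10 richest windows, the 5 windows of highest and lowest share, the 5 longest runs (ties by position), and the 5 sites nearest to and farthest from E12.5. Members, lists and tests were chosen with earlier results of these data known. Gene annotation and sequence of mm9 were not used here, so the planned gene and motif counts were not run and no sequence is shown.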

Additional observations from a re-analysis of the deposited data

How the results depend on the processing

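The number of early sites was 12833 to 15557 under every alternative that did not limit the lists by width, against 15712. It was 6105 of 44699 when each Hoxa13 list was limited to its widest peaks at the length of the shortest. As a share of E11.5 peaks, against 11.0%, they were 8.95% with at least 50% reciprocal overlap with E11.0, 10.6% and 9.80% with no E12.5 peak within 500 and 2000 bp, 10.7% without dense windows and 13.7% with the widest peaks. The share meeting Hoxa11 replicate 1 was 0.288% under reciprocal overlap and 1.08% with the widest peaks, and that meeting replicate 2 was 0.171% and 0.491%, and 0.153% with the 1187 replicate 2 peaks of deposited q at most 1e-05. The share with a site of both replicates was 0.229% with the widest peaks, and 0.255% to 0.509% when either Hoxa11 replicate was left out, which takes the peaks of the other in place of replicated sites. The cause of these shifts was not tested. In each of the 25 combinations of setting and Hoxa11 list the share of early sites was below those of late-shared sites (6.82 to 28.2 times as high), all-stage sites (5.47 to 22.9 times) and E11.5-only sites (1.04 to 2.35 times). A setting that changes the rule redraws all 4 classes, so their names there follow the changed rule. These combinations share most of their peaks and leave out the weighting by width and the widest 25%. Under the weighting the ratio was as low as 3.91 for all-stage sites (replicate 1). For E11.5-only sites it was as high as 2.60 (sites of both replicates). The weighting by width, the values outside dense windows for adjacent peaks and the distance from E12.5 at Hoxa11 sites were added after the data had been seen. No paired analysis was possible because the Hoxa13 stages have 1 library each and no test was run between groups.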

Other observations

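Across 1 Mb windows with at least 40 E11.5 peaks, the share meeting E11.0 among E11.5 peaks without E12.5 (the early sites) was set against the same share among E11.5 peaks with E12.5. Over 1745 windows Pearson's r was 0.33 and Spearman's rho 0.18, and over the 1719 of them that were not dense r was 0.21 and rho 0.15. This is a weak relation across windows of the same libraries, given as a description. Over the genome, E11.0 was met by 14.0% of E11.5 peaks without E12.5 (13.8 to 14.2) and by 44.3% of those with E12.5 (43.7 to 44.8). Outside the placed chromosomes, Y_random held the most early sites, 92 of 329 E11.5 peaks (28.0%, 23.2 to 33.1), followed by Un_random with 22 of 88 and 8_random with 16 of 40. All-stage sites made up more of the E11.5 peaks in each, at 36.5%, 27.3% and 45%.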
